A study of Mus musculus with 12 samples.

Results

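The ER stress and integrated stress response genes described here are *Atf4*, *Ddit3*, *Trib3*, *Chac1*, *Asns*, *Ppp1r15a*, *Hspa5*, *Herpud1*, *Xbp1* and *Atf6*, 10 of the 53379 genes in the count table. They were listed by name, with earlier results of these data known, and each was found in the table through its Ensembl identifier. RNA was sequenced from bone marrow-derived macrophages (BMDMs) of 4 C57Bl/6J mice, for which the labels name no engineered allele. Cells from each mouse stayed untreated or were given 1 µM fenoterol, an agonist of the β2-adrenergic receptor, for 1 h or 4 h, so that each of the 3 groups holds 1 library per mouse. All cells had been grown from marrow in medium conditioned by L929 fibroblasts, no vehicle is stated for the untreated cells, and the comparison asks which transcripts move soon after the receptor is engaged.

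The unfolded protein response is the set of signals by which a cell answers misfolded protein in the endoplasmic reticulum (ER). Its sensors in the ER membrane are IRE1, which splices *Xbp1* mRNA, PERK, which phosphorylates the translation factor eIF2α, and ATF6, which is cleaved to release a transcription factor. Phosphorylation of eIF2α is also the point at which amino acid shortage, heme shortage and double-stranded RNA feed into the integrated stress response, whose main effector ATF4 is controlled largely at translation. Secretory cells such as activated macrophages are known to use these signals. The counts analysed here measure mRNA alone: they do not show ATF4 protein, the cleavage of ATF6 or the splicing of *Xbp1*.

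Of the 10 genes, 9 had enough reads to be tested and *Chac1* did not. At 1 h, 3 of the 9 passed an adjusted p of 0.05 in the edgeR quasi-likelihood test: *Ppp1r15a* and *Trib3* rose and *Herpud1* fell. Over all 12386 genes tested, 20.1% passed at 1 h, 10% upward and 10.1% downward. At 4 h, 6 of the 9 passed: *Trib3*, *Xbp1*, *Atf4* and *Ppp1r15a* rose, and *Herpud1* and *Atf6* fell. The background at 4 h was 40%, with 19.7% upward and 20.4% downward. Between 1 h and 4 h, 5 of the 9 differed, with *Atf4* and *Xbp1* higher and *Ppp1r15a*, *Herpud1* and *Atf6* lower at 4 h. Here the background was 38.5%, with 18.7% upward and 19.8% downward. The count between the times was 3 without mouse 2 or 3 at 1 h or without mouse 1 at 4 h, against 33.5%, 34.5% and 34.9% of all genes. Libraries of the same mouse deviated together, and when the edgeR fit took the mouse as a block, 6 of the 9 passed at 1 h, with *Atf4*, *Ddit3* and *Xbp1* added, against 27% of all genes. With that block 8 passed at 4 h, with *Ddit3* and *Hspa5* added, against 47.4% of all genes, and 5 between the times, against 46.6%. The comparisons with the untreated BMDMs share the untreated libraries, and are therefore not independent of each other. The median log2 fold change of the 9 genes was 0.20 at 1 h and 0.26 at 4 h, and that of all genes tested was -0.0049 and 0.0042.

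The libraries held 14580533 to 24153284 counts each, and no pair of replicates agreed within counting error. The macrophage markers summed to 820132 to 994380 normalized counts per library, of which *Lyz2* held 391968 to 514813. Single markers moved within that sum: the mean of *Cd14* was 12830 normalized counts untreated, 67035 at 1 h and 73353 at 4 h, and that of *Mertk* was 3860, 3370 and 1353. Of 6 erythroid markers 5 were at 0 in every library. The T cell marker *Cd8a* was at 0 throughout and *Cd3e* reached at most 1.13 normalized counts, so that the 421 to 787 of the T cell list were nearly all *Cd4*. Near 0, the erythroid sums at 1 h (1.13 to 3.08) lay just above the untreated ones (0 to 1.08), and the sums at 4 h (0 to 2.34) overlapped both. The summed markers of the other cell types overlapped between the untreated and treated groups, with 434.0 to 885 normalized counts for neutrophils and 474 to 1470 for fibroblasts over all libraries. In bulk RNA, fewer cells of a type and less RNA per cell cannot be told apart.

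Promoter sequence is shown for *Ppp1r15a* and *Herpud1*, whose group means had the widest ranges of the tested members, and for *Hspa5* the ER stress element alone. RefSeq windows on GRCm38.p6, from 250 bases before to 50 bases after the RefSeq start of each gene, were at hand for 9 of the 10 genes and not for *Atf6*. These starts lay from 28 bases upstream (*Trib3*) to 120 bases downstream (*Hspa5*) of the GENCODE starts given with each gene. The 250 bases before the start are printed 5′ to 3′ on the strand of the gene. The *Ppp1r15a* stretch is chr7:45526269-45526518, minus strand and that of *Herpud1* is chr8:94386179-94386428, plus strand. Capitals mark matches to the motifs described after the sequences.
Ppp1r15a: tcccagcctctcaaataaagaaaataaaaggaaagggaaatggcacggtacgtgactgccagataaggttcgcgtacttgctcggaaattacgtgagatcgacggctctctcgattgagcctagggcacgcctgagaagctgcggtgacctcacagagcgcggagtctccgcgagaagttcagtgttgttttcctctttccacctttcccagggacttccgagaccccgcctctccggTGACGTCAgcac
Herpud1: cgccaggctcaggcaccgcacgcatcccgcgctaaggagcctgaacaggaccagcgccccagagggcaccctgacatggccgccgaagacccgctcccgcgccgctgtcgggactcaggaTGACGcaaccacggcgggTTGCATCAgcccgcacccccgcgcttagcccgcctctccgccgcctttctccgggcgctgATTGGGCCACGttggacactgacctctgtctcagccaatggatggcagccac

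Motifs were searched on both strands, with positions given for the first base of the match and counted from the start site. The cAMP response element TGACGTCA, the site of CREB-family factors, stood at -12 in *Ppp1r15a* and in no other member's window. It was in 1.79% of the 32851 RefSeq windows of the same length. Its shorter form TGACG, which the full element contains, was in 7 of the 9 members' windows (*Atf4*, *Trib3*, *Chac1*, *Asns*, *Ppp1r15a*, *Hspa5* and *Herpud1*) and in 20.8% of all windows. The element bound by ATF4 dimers with C/EBP proteins, TGATGNAA, was in the windows of *Trib3*, *Chac1*, *Asns* and *Herpud1* and in 3.97% of all windows. The ER stress element, CCAAT and CCACG spaced by 9 bases, stood at -65 in *Hspa5* as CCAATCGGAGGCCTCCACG (chr2:34772025-34772043, plus strand), inside the span GENCODE gives that gene, and was in 0.119% of all windows. Its variant ERSE-II, ATTGG and CCACG spaced by 1 base, stood at -52 in *Herpud1* and was in 0.0365% of all windows. The core TGACGTGG of the XBP1 element was in none of the 9 windows and in 0.676% of all windows. These matches describe the letters only, and no binding was measured.

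The level of each transcript can be compared between genes per length, as counts scaled to library size (CPM) per kilobase of exon. In untreated BMDMs the highest mean level was that of *Hspa5*, at 148 ± 8.20 (SD, n = 4) CPM per kilobase. *Atf4* followed at 54.5 ± 2.88 and *Xbp1* at 33.1 ± 3.13, and the ranges of these 3 genes did not overlap. *Herpud1* at 29.0 ± 5.43 overlapped *Xbp1* above it and *Ddit3* below it, and *Ddit3* at 23.3 ± 4.76 overlapped *Atf6* at 19.3 ± 0.664. The lower places, without overlap between neighbours, were held by *Ppp1r15a* at 7.95 ± 0.787, *Asns* at 4.13 ± 0.479, *Trib3* at 1.64 ± 0.268 and *Chac1* at 0.131 ± 0.0467. With fenoterol *Ppp1r15a* went from place 7 to place 4 at 1 h (24.2 ± 3.64) and back to place 7 at 4 h (9.84 ± 1.26). At 1 h the ranges of *Ppp1r15a*, *Atf6* (20.6 ± 1.01), *Herpud1* (20.6 ± 3.64) and *Ddit3* (18.04 ± 2.89) all overlapped, so that their order there is not settled. At 4 h *Ddit3* (19.4 ± 2.58) stood in place 4, above *Atf6* (14.5 ± 0.792) without overlap. *Herpud1* (12.7 ± 1.95) followed in place 6 and overlapped both *Atf6* above it and *Ppp1r15a* below it.

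**Figure D1:**
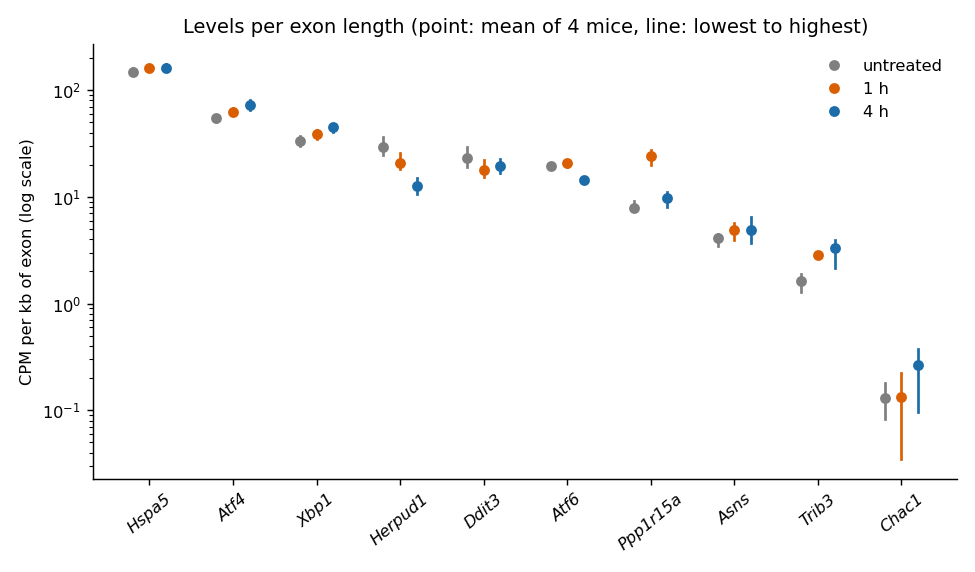
Level of each of the 10 genes in CPM per kilobase of exon (log axis) in untreated BMDMs and after 1 h and 4 h of fenoterol, with a point at the mean of 4 mice and a line from the lowest to the highest library. *Hspa5* lies highest and *Chac1* lowest in all 3 groups, and *Ppp1r15a* moves from 7.95 to 24.2 at 1 h and to 9.84 at 4 h.

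*Atf4* (ENSMUSG00000042406, chr15:80255184-80257541, plus strand, GRCm38) encodes the transcription factor at the centre of the integrated stress response. Its normalized counts in mice 1, 2, 3 and 4 were 2591, 2342, 2649 and 2510 in untreated BMDMs, 3177, 2729, 2833 and 2852 at 1 h, and 3737, 3021, 3352 and 3355 at 4 h. Every treated library lay above every untreated one, and in each mouse the level at 4 h was above that at 1 h. At 4 h the mean was 3367 ± 293 against 2523 ± 133 in untreated cells (SD, n = 4), a log2 fold change of 0.42 (SE 0.07, edgeR adjusted p = 0.000204), or 1.33-fold. At 1 h the mean was 2898 ± 194 and the log2 fold change 0.20, with a 95% interval of 0.05 to 0.35 and an edgeR adjusted p of 0.0562. With the mouse as a block the value at 1 h was also 0.20 and passed, with an edgeR adjusted p of 0.00417, as it did in DESeq2 (adjusted p = 0.0321). The level at 4 h exceeded that at 1 h by 0.22 on the log2 scale (edgeR adjusted p = 0.0221). This last call was lost when mouse 2 or mouse 3 at 1 h or mouse 1 at 4 h was left out, with edgeR adjusted p-values of 0.0683, 0.0775 and 0.0746.

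*Trib3* (ENSMUSG00000032715, chr2:152337422-152344032, minus strand), a pseudokinase gene known as a target of ATF4 and CHOP, had the lowest level per length of the tested members. Untreated BMDMs of mice 1 to 4 had 66, 54, 75 and 79 normalized counts, those at 1 h had 124, 116, 120 and 119, and those at 4 h had 166, 91, 144 and 151. All 8 treated libraries exceeded all untreated ones. The 1 h libraries lay close together, while mouse 2 at 4 h was lower than the other mice. The mean went from 68.3 ± 11.2 to 120 ± 3.46 at 1 h, a 1.74-fold rise (log2 fold change 0.80, SE 0.18, edgeR adjusted p = 0.00462). At 4 h it was 138 ± 32.7, a 2.01-fold rise (log2 fold change 1.01, SE 0.18, edgeR adjusted p = 0.000318). Between 1 h and 4 h the difference of 0.21 on the log2 scale did not pass (edgeR adjusted p = 0.367). Without mouse 2 at 4 h it was 0.36, just past the threshold (edgeR adjusted p = 0.0498).

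*Ddit3* (ENSMUSG00000025408, chr10:127290774-127296288, plus strand) encodes CHOP, the transcription factor linked to cell death under prolonged ER stress. The normalized counts of mice 1 to 4 were 679, 812, 996 and 642 in untreated BMDMs, 520, 603, 744 and 561 at 1 h, and 608, 562, 761 and 677 at 4 h. The mice differed among themselves, mouse 3 being highest in every group, and the groups overlapped. Within mice the level was lower than untreated in 4 of 4 at 1 h and in 3 of 4 at 4 h. The log2 fold change was -0.37 at 1 h (95% interval -0.67 to -0.06, edgeR adjusted p = 0.0938) and -0.26 at 4 h (-0.57 to 0.04, adjusted p = 0.166). Single libraries moved both values by over 1.5 times: without untreated mouse 3 they were -0.22 and -0.13. Without untreated mouse 4 (-0.45, edgeR adjusted p = 0.0497) or mouse 3 at 1 h (-0.47, adjusted p = 0.0377) the 1 h value passed. With the mouse as a block the values were -0.36 and -0.25, and both passed, with edgeR adjusted p-values of 0.00258 and 0.0163. At 1 h the call was also made when libraries were scaled by library size only (adjusted p = 0.0444) and without a filter on low counts (adjusted p = 0.0415), again with edgeR. Of the exon bases of *Ddit3*, 6.13% (105 bases) are overlapped by a second GENCODE entry of the same name on the same strand, which is absent from the count table. Genes on the opposite strand overlap 4.73%, with 68 of these bases in *Mars*. *Mars* had 9744 counts in all and *Ddit3* 8175. Since the strand setting of the counting is not given in the sources used here, reads in that overlap cannot be assigned with certainty.

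*Chac1* (ENSMUSG00000027313, chr2:119351229-119354381, plus strand) encodes an enzyme that degrades glutathione and is a target of ATF4. Its raw counts in mice 1 to 4 were 6, 2, 6 and 3 in untreated BMDMs, 7, 1, 6 and 3 at 1 h, and 9, 3, 13 and 12 at 4 h, 71 in all. The groups overlapped, and these counts were too low for the filter on low counts, so that the gene was not among those tested. Fitted without that filter, its log2 fold change was 0.02 at 1 h (95% interval -1.27 to 1.31) and 0.97 at 4 h (-0.20 to 2.14, edgeR adjusted p = 0.301). These intervals thus do not exclude a 2-fold rise at either time, or a 2-fold fall at 1 h.

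*Asns* (ENSMUSG00000029752, chr6:7675169-7693254, minus strand), the asparagine synthetase gene, is a standard reporter of ATF4 activity during amino acid shortage. The untreated libraries of mice 1 to 4 had 224, 185, 243 and 235 normalized counts, the 1 h libraries 308, 214, 288 and 243, and the 4 h libraries 276, 200, 233 and 349. The 3 groups overlapped, and mouse 2 was lowest in each of them. The log2 fold change was 0.25 at 1 h (95% interval -0.11 to 0.60, edgeR adjusted p = 0.356) and 0.26 at 4 h (-0.10 to 0.61, adjusted p = 0.242). These intervals allow a rise of the size seen for *Atf4* at 4 h as well as no rise. The 4 h value was 0.09 without mouse 4 at 4 h, and the 1 h value was 0.16 without mouse 1 at 1 h.

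*Ppp1r15a* (ENSMUSG00000040435, chr7:45522916-45526268, minus strand) encodes GADD34, the inducible subunit of the phosphatase that removes phosphate from eIF2α and so ends the block of translation. It showed the largest change of the tested members. The untreated BMDMs of mice 1 to 4 had 458, 523, 426 and 426 normalized counts. At 1 h they had 1575, 1568, 1294 and 1151, and at 4 h 575, 634, 597 and 466. The 1 h libraries stood above all others, and the lowest 4 h library lay within the range of untreated ones. The mean rose 3.05-fold at 1 h, from 458 ± 45.4 to 1397 ± 210 (log2 fold change 1.61, SE 0.12, edgeR adjusted p = 9.16e-08). From 1 h to 4 h it fell by 1.30 on the log2 scale (SE 0.11, edgeR adjusted p = 5.78e-07), in 4 of 4 mice. At 4 h it was 568 ± 72.4, still 0.31 above untreated on the log2 scale (95% interval 0.06 to 0.56). The edgeR adjusted p of 0.0497 was at the edge of the threshold. The call was lost without untreated mouse 1, 3 or 4, without mouse 3 at 1 h, and without mouse 1, 2 or 3 at 4 h (edgeR adjusted p up to 0.136). It was lost too in limma-voom (adjusted p = 0.0848), in limma-trend (adjusted p = 0.0503), and in edgeR with a minimum mean count of 50 (adjusted p = 0.053).

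**Figure D2:**
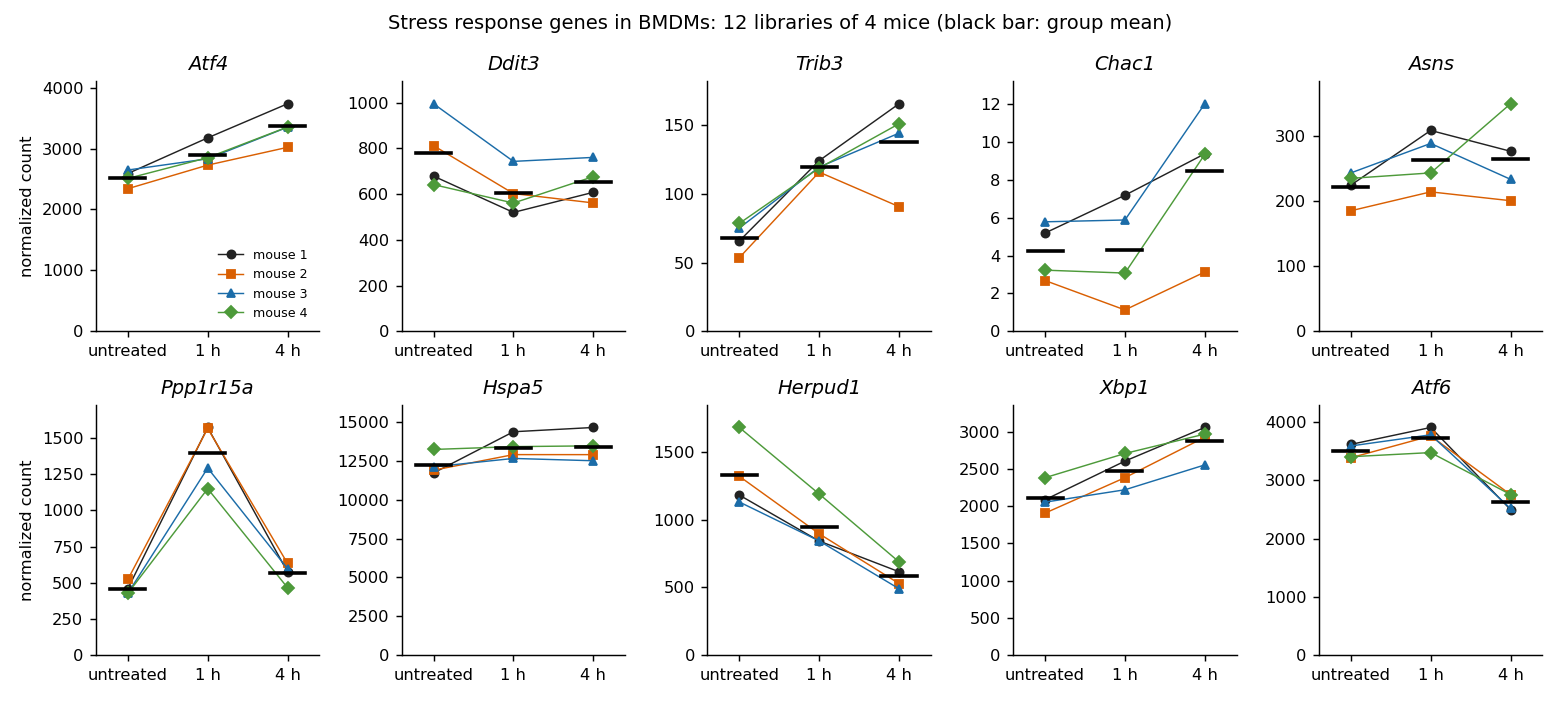
Normalized counts (linear axis from 0) of each of the 10 genes by group, with 1 line per mouse over untreated, 1 h and 4 h and a black bar at each group mean. The 1 h points of *Ppp1r15a* lie at 1151 to 1575, above all its other points, whereas the lines of *Herpud1* descend in all 4 mice.

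*Hspa5* (ENSMUSG00000026864, chr2:34771970-34777547, plus strand) encodes BiP, the main chaperone of the ER lumen and a target of ATF6 and XBP1. Its normalized counts were 11739, 11916, 12132 and 13252 in the untreated BMDMs of mice 1 to 4. They were 14394, 12919, 12673 and 13435 at 1 h and 14670, 12918, 12523 and 13486 at 4 h. Untreated mouse 4 exceeded some treated libraries, so that the groups overlapped, and mouse 1 was the highest of both treated groups. The log2 fold change was 0.12 at 1 h (95% interval -0.01 to 0.26, edgeR adjusted p = 0.204) and 0.13 at 4 h (-0.01 to 0.26, adjusted p = 0.122). With the mouse as a block the 4 h value was again 0.13, past the threshold with an edgeR adjusted p of 0.0471. Without mouse 1 at 4 h it was 0.08 with no block.

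*Herpud1* (ENSMUSG00000031770, chr8:94386438-94395377, plus strand) encodes an ER membrane protein of the machinery that passes misfolded proteins to the proteasome. In the untreated BMDMs of mice 1 to 4 it had 1183, 1322, 1132 and 1683 normalized counts, at 1 h 843, 897, 844 and 1191, and at 4 h 615, 528, 490 and 689. Mouse 4 was highest in all 3 groups, and its 1 h library reached into the untreated range. All 4 h libraries lay below all others, and in each of the 4 mice the level was lower at 1 h than untreated and lower again at 4 h. At 4 h the mean was 580 ± 89.1 against 1330 ± 249 untreated, 2.29-fold lower (log2 fold change -1.19, SE 0.15, edgeR adjusted p = 1.19e-05). At 1 h it was 943 ± 167, a log2 fold change of -0.49 (SE 0.14, edgeR adjusted p = 0.0236). The 1 h call was lost when untreated mouse 4 (-0.36, adjusted p = 0.0852) or mouse 1, 2 or 3 at 1 h (-0.44, -0.47 and -0.44, adjusted p up to 0.0754) was left out of the edgeR fit. From 1 h to 4 h it fell by 0.70 on the log2 scale (SE 0.15, edgeR adjusted p = 0.00163).

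*Xbp1* (ENSMUSG00000020484, chr11:5520659-5525893, plus strand) encodes the transcription factor whose mRNA is spliced by IRE1, and the counts sum its spliced and unspliced forms. Mice 1 to 4 had 2089, 1909, 2056 and 2385 normalized counts untreated, 2609, 2386, 2223 and 2711 at 1 h, and 3061, 2930, 2557 and 2972 at 4 h. The 4 h libraries lay above all untreated ones, those at 1 h overlapped with both other groups, and in each mouse the level at 1 h was between the other two. At 4 h the mean was 2880 ± 222 against 2110 ± 200 untreated, 1.36-fold higher (log2 fold change 0.45, SE 0.08, edgeR adjusted p = 0.00044). At 1 h it was 2482 ± 220, and the log2 fold change of 0.23 (95% interval 0.06 to 0.41) missed the threshold with an edgeR adjusted p of 0.0576. With the mouse as a block it was also 0.23 and passed (edgeR adjusted p = 0.00422), as it did in DESeq2 (adjusted p = 0.0316). The difference of 0.21 between 4 h and 1 h passed narrowly (edgeR adjusted p = 0.0491) and was lost without untreated mouse 1 or 3, without mouse 1, 2 or 3 at 1 h, and without mouse 1, 2 or 4 at 4 h (adjusted p up to 0.192). It was lost too under RLE scaling (edgeR adjusted p = 0.0525) and with a minimum mean count of 50 (edgeR adjusted p = 0.052).

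*Atf6* (ENSMUSG00000026663, chr1:170704674-170867771, minus strand) encodes the sensor that is cut in the Golgi and enters the nucleus. Its normalized counts in mice 1 to 4 were 3618, 3389, 3591 and 3406 untreated, 3909, 3763, 3783 and 3477 at 1 h, and 2498, 2755, 2517 and 2756 at 4 h. The 4 h libraries lay below all others, and the untreated and 1 h libraries overlapped. At 4 h the mean was 2632 ± 144 against 3501 ± 120 (log2 fold change -0.41, SE 0.05, edgeR adjusted p = 2.26e-05). At 1 h it was 3733 ± 182 (log2 fold change 0.09, 95% interval -0.02 to 0.21, edgeR adjusted p = 0.274). The fall from 1 h to 4 h was of -0.50 on the log2 scale (SE 0.05, edgeR adjusted p = 4.37e-06).

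**Figure D3:**
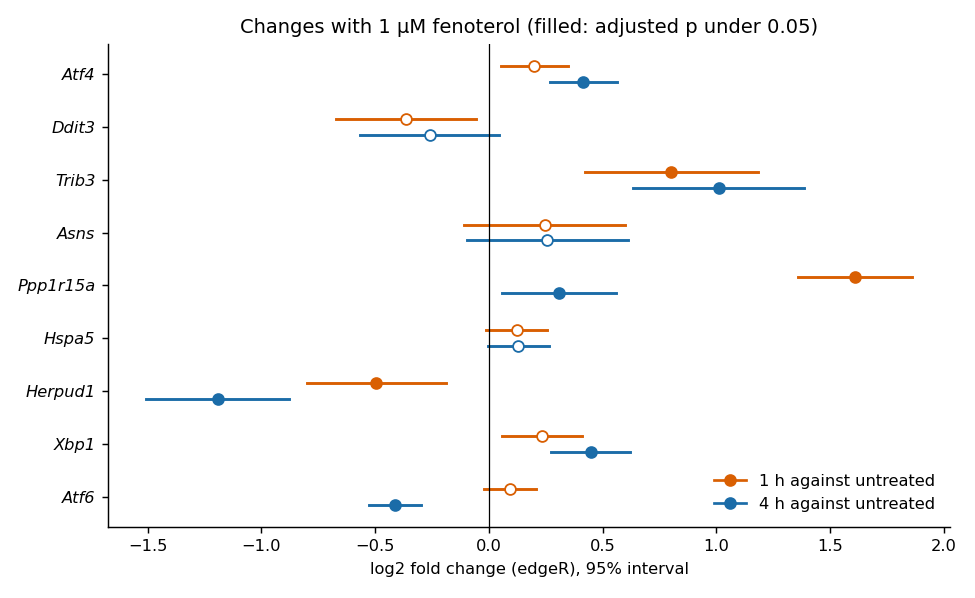
Log2 fold change of the 9 tested genes against untreated BMDMs at 1 h and 4 h, with 95% intervals from the edgeR fit and filled points for an adjusted p under 0.05. *Ppp1r15a* stands at 1.61 at 1 h and 0.31 at 4 h, and *Herpud1* at -0.49 and -1.19.

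Other genes, called pathway genes here, were read from 7 lists of 155 genes, of which 147 were tested. The lists include 20 heat shock genes outside the ER (19 tested). At 1 h 39 of the 147 genes were higher and 6 lower, and at 4 h 69 were higher and 18 lower. Heat shock genes made up 6 of those higher at 1 h, and 8 of those higher and 2 of those lower at 4 h. Of the 147 genes 26.5% were higher and 4.08% lower at 1 h, against 10% and 10.1% of all genes. At 4 h 46.9% of the 147 were higher and 12.2% lower, against 19.7% and 20.4%. The median log2 fold change of the 147 genes was 0.10 at 1 h and 0.17 at 4 h, and that of all genes was -0.0049 and 0.0042. With libraries scaled by size only, 38 pathway genes were called at 1 h rather than 45, and 94 rather than 87 at 4 h. The share of all genes called was then 23.6% at 1 h and 40.4% at 4 h, against 20.1% and 40% in the main fit. Over all genes called at 1 h, 32.5% were higher with that scaling and 49.8% with TMM factors. Between 4 h and 1 h those shares were 65.7% and 48.6%.

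Among 20 sensors and genes that control eIF2, 3 were higher and 2 lower at 1 h, and 7 higher and 4 lower at 4 h. These were 15% higher and 10% lower at 1 h, against 10% and 10.1% of all genes, and 35% and 20% at 4 h, against 19.7% and 20.4%. *Ern1*, which encodes IRE1α, rose from 2453 ± 254 to 3049 ± 217 and 4084 ± 266 normalized counts (log2 fold changes 0.31 and 0.74, edgeR adjusted p = 0.00922 and 2.53e-06). Of the genes of the eIF2α kinases, *Eif2ak3*, which encodes PERK, fell at 1 h (-0.22, edgeR adjusted p = 0.0435) and had a log2 fold change of 0.12 at 4 h (adjusted p = 0.212). The *Eif2ak3* call was lost when any 1 of 8 libraries was left out: untreated mouse 1, 2 or 4, mouse 2, 3 or 4 at 1 h, and mouse 2 or 3 at 4 h (edgeR adjusted p up to 0.150). It was lost as well under RLE scaling, without a filter on low counts and with only the 2 groups compared (edgeR adjusted p = 0.0515, 0.0628 and 0.0755). *Eif2ak4*, which encodes the amino acid sensor GCN2, fell at 4 h (-0.52, edgeR adjusted p = 9.55e-06). *Eif2ak1*, the gene of the heme-regulated kinase, rose at 4 h (0.27, edgeR adjusted p = 0.000202). *Eif2ak2*, which encodes PKR, had a log2 fold change of 0.29 at 4 h (edgeR adjusted p = 0.0838, and 0.0189 with the mouse as a block).

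*Impact* and *Ppp1r15b* had the largest rises of that list at 1 h. *Ppp1r15b*, which encodes CReP, the constitutive counterpart of GADD34 as a subunit of that phosphatase, rose by 0.46 at 1 h and 0.27 at 4 h (edgeR adjusted p = 2.57e-05 and 0.00144). *Impact*, an inhibitor of GCN2, had a mean of 903 ± 29.1 normalized counts in untreated cells, 1747 ± 125 at 1 h and 881 ± 77.3 at 4 h. Like *Ppp1r15a*, it was high at 1 h (log2 fold change 0.95, edgeR adjusted p = 8.48e-08), and at 4 h its log2 fold change was -0.04 (adjusted p = 0.714). *Creb3l2*, an ER-membrane transcription factor gene, rose at 4 h (0.46, edgeR adjusted p = 0.00152). *Eif2b4* fell at 1 h (-0.26, edgeR adjusted p = 0.0214) and *Eif2b3* at 4 h (-0.47, edgeR adjusted p = 0.00147), both encoding subunits of eIF2B, the exchange factor that eIF2α phosphorylation inhibits. The other subunit genes, looked at after their values were seen, did not follow: *Eif2b2* and *Eif2b5* rose at 4 h (0.22 and 0.20, edgeR adjusted p = 0.0161 and 0.0194). *Eif2b1* had a log2 fold change of 0.08 at 4 h (edgeR adjusted p = 0.379) and *Eif2b4* one of 0.02 (adjusted p = 0.853). The 1 h call of *Eif2b4* was lost without mouse 1 at 1 h or untreated mouse 3 (edgeR adjusted p up to 0.0787) and without a filter on low counts (0.0592).

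Of 24 tested genes linked to ATF4, 5 were higher and 3 lower at 1 h, and 9 higher and 7 lower at 4 h, with medians of -0.01 and 0.04. The list had 20.8% higher and 12.5% lower at 1 h, against 10% and 10.1% of all genes, and 37.5% and 29.2% at 4 h, against 19.7% and 20.4%. The largest rises were of *Jdp2* (4.04 at 1 h and 2.00 at 4 h), *Cebpb* (3.05 and 1.82) and *Ddit4* (2.12 at both times), which encode 2 bZIP transcription factors and an inhibitor of mTORC1. Their edgeR adjusted p-values were at most 1.46e-05. *Atf3*, a stress-induced repressor gene and a classical target of ATF4, went the other way, from 4879 ± 261 normalized counts to 3129 ± 247 at 1 h and 1356 ± 90.1 at 4 h. Its log2 fold changes were -0.64 and -1.85 (edgeR adjusted p = 4.63e-06 and 7.04e-11). *Nupr1* fell at both times (-0.46 and -0.37, edgeR adjusted p = 0.015 and 0.025), and *Vldlr*, at 23.1 normalized counts untreated, fell at 4 h (-1.11, edgeR adjusted p = 0.0307). The *Nupr1* call was lost at 1 h without untreated mouse 2 (edgeR adjusted p = 0.0505) and at 4 h without untreated mouse 2 or mouse 2 or 3 at 4 h (up to 0.0758), and at 4 h also without a filter on low counts (0.0543). The *Vldlr* call was lost without untreated mouse 1 or 3 or mouse 1, 2 or 3 at 4 h (edgeR adjusted p up to 0.0875).

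In amino acid synthesis and import, 7 of 17 tested genes were higher and 1 lower at 1 h, and 8 higher and 2 lower at 4 h, with medians of 0.39 and 0.26. The share higher was 41.2% at 1 h and 47.1% at 4 h, against 10% and 19.7% over all genes, and the share lower 5.88% and 11.8%, against 10.1% and 20.4%. *Got1*, the cytosolic aspartate aminotransferase, rose from 1367 ± 101 normalized counts to 7246 ± 414 and 5572 ± 583 (log2 fold changes 2.41 and 2.03, edgeR adjusted p = 2.33e-11 and 1.32e-10). *Slc7a11*, the cystine importer, rose from 18.1 ± 6.70 to 71.1 ± 24.4 and 146 ± 53.4 (1.94 and 2.97, edgeR adjusted p = 0.000841 and 4.83e-06). *Pck2*, the mitochondrial PEP carboxykinase, fell at both times (-0.34 and -0.65, edgeR adjusted p = 0.0014 and 1.44e-06), and *Shmt2* fell at 4 h (-0.26, edgeR adjusted p = 0.0437). The *Shmt2* call was lost when any 1 of 9 libraries was left out: all 4 untreated ones, mouse 1, 2 or 4 at 1 h, and mouse 2 or 4 at 4 h (edgeR adjusted p up to 0.0867). It was lost as well under scaling by library size only, without a filter on low counts and with only the 2 groups compared (edgeR adjusted p = 0.0724, 0.0522 and 0.0625).

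Of 24 ER chaperones and folding enzymes, 6 were higher and none lower at 1 h, and 15 were higher and 1 lower at 4 h, with medians of 0.13 and 0.30. Higher were 25% at 1 h and 62.5% at 4 h, against 10% and 19.7% of all genes, and lower were 0% and 4.17%, against 10.1% and 20.4%. *Hyou1*, a large ER chaperone, rose from 1622 ± 54.4 to 2941 ± 361 normalized counts at 4 h (log2 fold change 0.86, edgeR adjusted p = 5.44e-07). *Fkbp14*, at 35.0 normalized counts untreated, rose by 0.91 at 4 h (edgeR adjusted p = 0.00317). *Txndc11* rose most at 1 h (1.37, edgeR adjusted p = 1.59e-08) and less at 4 h (0.65, adjusted p = 2.47e-05). *Manf* rose at both times (0.44 and 0.51, edgeR adjusted p = 0.000421 and 4.27e-05), and the lectin chaperone gene *Canx* was the gene that fell at 4 h (-0.19, edgeR adjusted p = 0.0373). That call was lost without untreated mouse 1, 2 or 4 or mouse 2, 3 or 4 at 4 h (edgeR adjusted p up to 0.119), under scaling by library size only (0.0533) and without a filter on low counts (0.0699).

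Of 22 genes of ER-associated degradation, 7 were higher and none lower at 1 h, and 12 were higher and 2 lower at 4 h, with medians of 0.09 and 0.16. The genes called higher made up 31.8% at 1 h and 54.5% at 4 h, against 10% and 19.7% of all genes, and those called lower 0% and 9.09%, against 10.1% and 20.4%. The 2 lower ones were *Derl3*, which went from 32.7 ± 11.7 to 12.6 ± 3.77 normalized counts (log2 fold change -1.37, edgeR adjusted p = 0.0109), and *Edem1* (-0.19, edgeR adjusted p = 0.0186). *Edem1* had risen at 1 h (0.18, edgeR adjusted p = 0.0413), a call lost under scaling by library size only (adjusted p = 0.186), without a filter on low counts (0.0796) and with only the 2 groups compared (0.0588). It was lost as well without untreated mouse 2 or 4, mouse 1, 2 or 3 at 1 h, or mouse 2 or 4 at 4 h (edgeR adjusted p up to 0.128), and its 4 h call without untreated mouse 1 or mouse 3 at 4 h (up to 0.0608) or without a filter on low counts (0.0507). *Ube2j1*, a ubiquitin-conjugating enzyme of the ER membrane, rose by 0.82 at 1 h and 0.31 at 4 h (edgeR adjusted p = 2.26e-07 and 0.00144). *Man1b1* rose by 0.60 and 0.39 (edgeR adjusted p = 1.1e-06 and 3.67e-05), and *Nploc4* by 0.33 at 4 h (edgeR adjusted p = 6.43e-05). *Herpud1*, which works in the same machinery, fell.

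Of 21 tested genes of import into and transport out of the ER, 5 were higher at 1 h and 10 at 4 h, and none was lower at either time, with medians of 0.13 and 0.16. Thus 23.8% and 47.6% were higher, against 10% and 19.7% of all genes, of which 10.1% and 20.4% were lower. *Srprb* rose by 0.44 and 0.48 (edgeR adjusted p = 0.000151 and 2.71e-05), *Sec24d* by 0.32 and 0.27 (0.0015 and 0.00219), and *Sec23b* by 0.70 at 4 h (5.41e-07). These encode a subunit of the signal recognition particle receptor and coat proteins of ER exit vesicles.

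**Figure D4:**
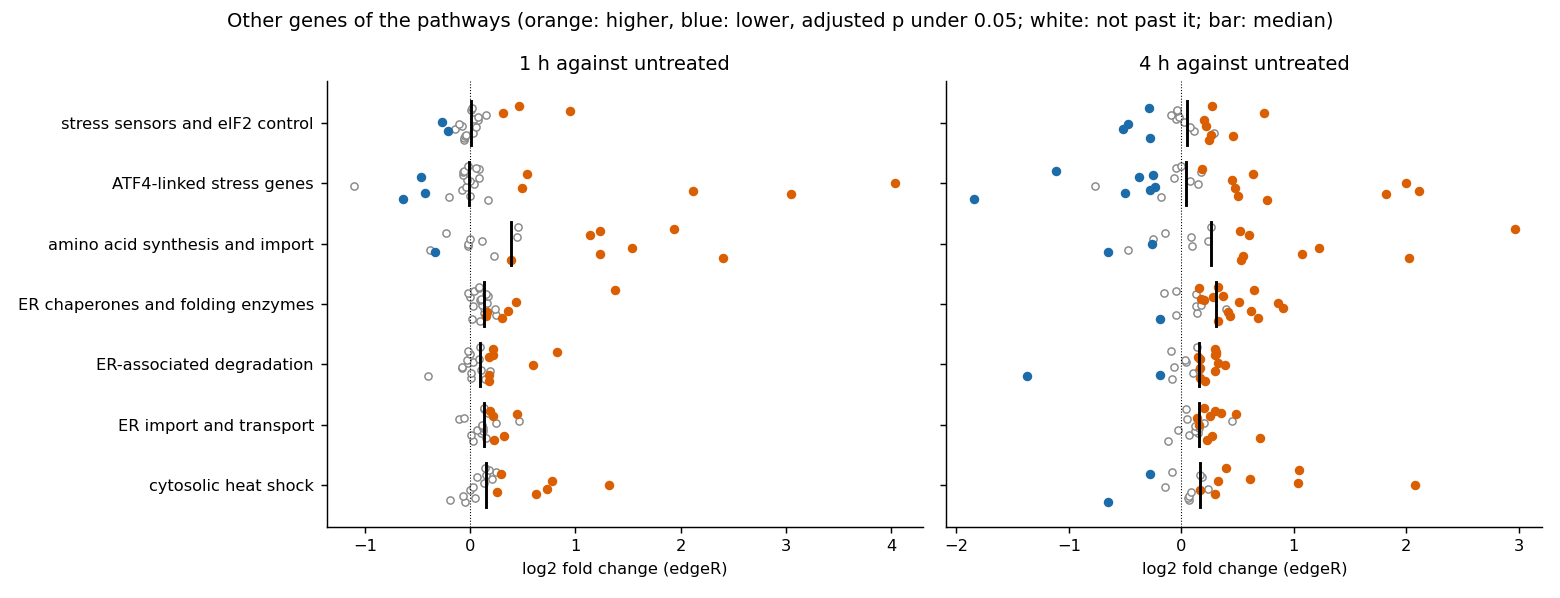
Log2 fold change of the 147 tested genes of the 7 lists at 1 h and at 4 h against untreated BMDMs, with 1 point per gene (orange for higher and blue for lower at an edgeR adjusted p under 0.05, white for neither) and a bar at the median of each list. The medians at 4 h lie between 0.04 for genes linked to ATF4 and 0.30 for ER chaperones and folding enzymes.

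For the 3 members whose group means ranged most widely, the genes with the nearest profiles over the 12 libraries were sought by Euclidean distance between log2 CPM values centred on the untreated mean. Nearest to *Ppp1r15a* were *Cwc25* (distance 0.458), *Bend3* (0.609) and *Tiparp* (0.653). The log2 fold change of *Cwc25* was 1.72 at 1 h and 0.23 at 4 h. Nearest to *Herpud1* were *Dbp* (0.444), *H2-K2* (0.689) and *Fam53b* (0.691), and the log2 fold change of *Dbp* was -0.59 at 1 h and -1.22 at 4 h. Nearest to *Trib3* were *Tpm4* (0.713), *Etv1* (0.752) and *Zfand2a* (0.790), and that of *Tpm4* was 0.69 and 0.92. *H2-K2* belongs to a multigene family, so its counts are uncertain. These distances describe likeness among the tested genes over libraries that share their mice and treatments.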

How the data were processed

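BMDMs of 4 mice in 3 groups gave 12 libraries. Stranded mRNA libraries were read from 1 end over 50 bases, and the authors aligned the reads to GRCm38 (TopHat2 2.0.11) and deposited raw counts per gene from HTSeq 0.8.0. The strand setting and annotation release are not given in the sources used here. Symbols and coordinates came from GENCODE M21, which matched 53274 of 53379 genes. Genes were filtered with filterByExpr, libraries scaled by TMM, and 1 edgeR 4.0.16 quasi-likelihood fit (R 4.3.3, no covariate) was tested per contrast, with Benjamini-Hochberg adjustment over 12386 genes and a threshold of 0.05. The procedure was tried on simulated counts drawn without a mouse effect, so that trial does not speak to the pairing by mouse. Normalized counts are counts scaled to the TMM library sizes. DESeq2 1.42.0, limma 3.58.1, other scalings and filters, a block for the mouse and leaving out each library were alternatives.

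The titles number the mice. Deviations from group means correlated at 0.290 to 0.561 within mice (12 pairs) and -0.304 to 0.0912 between mice (36 pairs). In the main fit, p-values rest on the spread between the 4 mice within groups, and the pairing by mouse is not used. With the mouse as a block they rest on the spread of differences within mice. The members and lists were chosen with earlier results of these data known. Named were the members, the sensor kinase genes and *Ppp1r15b*, per list the 2 largest rises and 2 largest falls past the threshold at each time, and the 3 nearest profiles of the 3 members that ranged most widely.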

Additional observations from a re-analysis of the deposited data

Results flagged for a closer look

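The effect of fenoterol differed between the times for 34 of the 47 members and named pathway genes tested, by the edgeR test of 4 h against 1 h at an adjusted p under 0.05. Over all genes 38.5% differed, and most of the pathway genes were named for large changes, so the count is a description. Among the members, the log2 difference was positive for *Atf4* (0.22) and *Xbp1* (0.21) and negative for *Ppp1r15a* (-1.30), *Herpud1* (-0.70) and *Atf6* (-0.50). Among the genes of the lists it was positive for *Ern1* (0.42), *Eif2ak1* (0.30), *Eif2ak3* (0.33), *Eif2b4* (0.29), *Creb3l2* (0.51), *Slc7a11* (1.03), *Hyou1* (0.70), *Fkbp14* (0.78), *Nploc4* (0.36), *Sec23b* (0.55) and *Hsph1* (0.87). It was negative for *Eif2ak4* (-0.38), *Eif2b3* (-0.37), *Ppp1r15b* (-0.19), *Impact* (-0.99), *Atf3* (-1.21), *Cebpb* (-1.23), *Vldlr* (-1.05), *Jdp2* (-2.04), *Pck2* (-0.31), *Got1* (-0.38), *Canx* (-0.20), *Txndc11* (-0.73), *Edem1* (-0.37), *Ube2j1* (-0.52), *Man1b1* (-0.21), *Hspd1* (-0.57), *Hspa4* (-0.45) and *Ahsa1* (-0.60). The members *Atf4* and *Xbp1* lost this call when single libraries were left out, as stated with their values. *Vldlr* lost it in 7 leave-outs (untreated mouse 2 or 3, mouse 1 or 2 at 1 h, and mouse 1, 2 or 3 at 4 h, edgeR adjusted p up to 0.151) and under 5 other settings. *Canx* lost it in 5 leave-outs (mouse 1 or 2 at 1 h, and mouse 2, 3 or 4 at 4 h, edgeR adjusted p up to 0.0958) and under scaling by library size only (0.193). That scaling also ended the call of *Ppp1r15b* (edgeR adjusted p = 0.145) and *Man1b1* (0.0738), and *Eif2b3* lost it without a filter on low counts (0.0573).

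In 6 of 144 groups of 4 libraries, 1 library stood apart from the other three, and chance alone flags about 1 in 20 groups, or 7.2 of 144. *Herpud1* at 1 h had 1191 normalized counts in mouse 4 against 843 to 897 in the other mice. *Eif2ak1* in untreated BMDMs had 2156 in mouse 4 against 2058 to 2068. *Shmt2* had 601 in untreated mouse 2 against 636 to 641, and 693 in mouse 3 at 1 h against 587 to 603. *Sec23b* at 4 h had 2068 in mouse 1 against 1704 to 1742, and *Hspd1* at 4 h had 432 in mouse 2 against 477 to 486.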

How the results depend on the processing

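At 1 h the number of members called was 3, and 5 in DESeq2, 5 without a filter on low counts, 6 with the mouse as a replicate block and 2 to 4 when single libraries were left out. Over all genes 20.1% were called in the main fit, 21.1% in DESeq2 and 27% with the block. Without the filter it was 9.54% of 23560 genes, and in the leave-outs 16.7% to 19.8%. At 4 h the number of members was 6, against 40% of all genes, and 5 to 6 in the leave-outs, against 35.6% to 39.7%. Between 4 h and 1 h the number of members was 5, and 3 at an adjusted p under 0.01. In the leave-outs it was 3 to 5: 3 without mouse 2 or 3 at 1 h or without mouse 1 at 4 h. Between these times 38.5% of all genes were called, and 33.5% to 37.8% in the leave-outs. At an adjusted p under 0.01, 27 rather than 45 pathway genes were called at 1 h. The share of all genes at that threshold was not computed, so this count and that of the members at 0.01 have no background beside them. In the single lists, 24 of 462 counts moved by over 1.5 times. The difference between 4 h and 1 h changed sign for *Asns* in limma-trend (-0.0085) and in leave-outs (-0.16 to 0.12), and for *Hspa5* in leave-outs (-0.041 to 0.043). *Eif2ak2* at 1 h did so under library size scaling (-0.038) and in leave-outs (-0.0502 to 0.128). None of these passed a test, and the cause was not tested. Pairing the libraries by mouse raised the calls over all genes from 2493 to 3348 at 1 h, from 4958 to 5870 at 4 h and from 4773 to 5775 between the times. Of the members, it changed the calls of *Atf4*, *Ddit3* and *Xbp1* at 1 h and of *Ddit3* and *Hspa5* at 4 h, and no other. With 71 counts of *Chac1* in 12 libraries, depth limits what can be said of that gene.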

Other observations

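A list of heat shock genes outside the ER was mostly cytosolic and held the mitochondrial *Hspd1* and *Hspe1*. Of its 19 tested genes, 6 were higher and none lower at 1 h, and 8 were higher and 2 lower at 4 h, with median log2 fold changes of 0.15 and 0.17. Higher were 31.6% and 42.1%, against 10% and 19.7% of all genes, and lower 0% and 10.5%, against 10.1% and 20.4%. The count of 6 at 1 h became 3 without untreated mouse 2, a fit that called 16.7% of all genes rather than 20.1%. Without untreated mouse 3 the 4 h count of 10 became 6, and 37.7% of all genes were called rather than 40%. *Hsph1*, a cofactor of HSP70, rose from 471 ± 22.3 to 975 ± 118 normalized counts at 4 h (log2 fold change 1.05, edgeR adjusted p = 2.42e-07). *Hspa4*, of the same family, rose at both times (0.77 and 0.33, edgeR adjusted p = 3.83e-06 and 0.00391). *Ahsa1*, which activates HSP90, fell at 4 h (-0.65, edgeR adjusted p = 4.4e-05). *Hspd1*, the mitochondrial chaperonin gene, rose at 1 h (0.29, edgeR adjusted p = 0.039, 0.106 when scaled by library size only, and 0.0645 with only the 2 groups compared) and fell at 4 h (-0.28, edgeR adjusted p = 0.0277). Leaving out untreated mouse 1, 2 or 4 or mouse 1, 2 or 3 at 1 h ended its 1 h call (edgeR adjusted p up to 0.114), and leaving out untreated mouse 1 or 3 or mouse 2 at 4 h ended its 4 h call (up to 0.0823). *Hspa1a* rose at both times (1.32 and 2.08, edgeR adjusted p = 0.0239 and 0.000282) from 5.57 ± 2.18 normalized counts, with the 1 h call lost without untreated mouse 1, 2 or 3 or mouse 2 at 1 h (edgeR adjusted p up to 0.0862). Its copy *Hspa1b* is near-identical, so that the split of reads between the pair is uncertain.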
